A study of Mus musculus with 22 samples.

Results

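Early treatment with SAFit2 was compared with early treatment with its carrier gel in the spinal cord of mice with knee joint pain, weeks after the drug was given. The comparison used 11 of the 22 mice sequenced, namely the 5 mice labelled SAFit2 and the 6 mice labelled Vehicle in the batch labelled Early. All 11 were wildtype C57BL6J males, aged 12 to 14 weeks at collection, and all had 1 mg of monoiodoacetate (MIA) injected into the knee joint, a glycolysis inhibitor that damages cartilage. Early SAFit2 mice were injected under the skin with 100 mg/kg of SAFit2 in a vesicular phospholipid gel (VPG), which releases the drug slowly, and Early Vehicle mice with the gel alone. By the methods the gel was given on days -3 and 4 relative to MIA and L4-L6 cord was taken on day 30, while the labels give days 3 and 4. The study describes the sequenced tissue as dorsal quadrants of the injured side, so that central canal, ventral horn and meninges are there only as far as the dissection kept them. The titles of the 5 treated mice read SAFit1, and their treatment label, SAFit2, was used here. Mice without MIA or without gel were not analysed here, so that every value below compares drug in gel with gel in injured mice.

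SAFit2 selectively inhibits FKBP51, the product of Fkbp5, a co-chaperone of Hsp90 that lowers the sensitivity of the glucocorticoid receptor and is itself induced by glucocorticoids. In the dorsal horn, excitatory and inhibitory neurons, neuropeptides and glia shape the signal of sensory fibres from the joint. The central canal of the cord is lined by ependymal cells whose motile cilia move cerebrospinal fluid. A motile cilium has an axoneme of microtubules with dynein arms that drive the beat, radial spokes and a nexin-dynein regulatory complex that coordinate it, and proteins inside the microtubules that stabilise it. Most other cells, neurons and astrocytes included, carry a primary cilium without these motor parts. The meninges wrap the cord and, with blood vessels, can be part of a dissected sample.

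The measurement was RNA sequencing, given as log2 CPM, the log2 of the reads on a gene scaled to a common library size. Of 17306 genes listed, 16176 reached -1 on this scale in 5 or more of the 11 mice and were tested. A gene at 0 reads has a log2 CPM of -3.15, the floor of the scale. Reads on genes ranged from 14763955 to 18312102 in SAFit2 mice (median 17390328) and from 14079545 to 24433349 in Vehicle mice (median 17894662). Neuronal, astrocyte and lumbar cord markers were high in every mouse. Snap25, a synaptic vesicle fusion protein, was between 11.41 and 11.88 log2 CPM in SAFit2 and between 11.21 and 11.75 in Vehicle mice. Hoxc10, a lumbar homeobox gene, was between 6.50 and 6.62 and between 6.35 and 6.68, respectively. Chat, which marks motor neurons of the ventral horn, varied within both groups. It was 4.54, 1.46, 4.41, 3.53 and 1.29 log2 CPM in SAFit2 mice 1 to 5 and between 1.78 and 3.79 (median 2.90) in Vehicle mice.

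Vehicle 4 and Vehicle 5 stood apart from the other mice. In Vehicle 4, Bc1, a short neuronal RNA, took 11.9% of reads and 1026 genes were at 0 reads, and in Vehicle 5 mitochondrially encoded genes took 15.6% of reads and 443 genes were at 0 reads. The medians of the Vehicle group were 1.68% for Bc1 and 7.87% for mitochondrial genes. SAFit2 1 also had more genes at 0 reads (471) than the other SAFit2 mice, which had 130 to 218. Vehicle 4 lay at 81.9 on the first principal component, which held 31.4% of the variance, and Vehicle 5 at 64.3 on the following one, with 19.2%. The groups did not differ past the threshold in any of 8 library measures (depth, scaling factor, shares of reads, GC slope and components), with exact permutation p between 0.275 and 0.805 and an adjusted p of 0.805 for each. Results are given with all 11 mice, and the leading counts and some list medians also without these Vehicle mice, an alternative chosen after seeing the data.

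No gene passed the adjusted threshold. With limma, 0 of 16176 genes passed both an adjusted p of 0.05 and a 1.2-fold difference (0%), and limma voom on the recovered reads also called 0. At a nominal p under 0.05, limma counted 193 genes higher with SAFit2 (1.19%) and 310 genes lower (1.92%), and voom 186 and 272. The total of 503 genes (3.11%) was below the 809 that this threshold counts on average by chance alone. The groups did not overlap for 55 genes (0.34%), 13 higher (0.0804%) and 42 lower (0.26%). Larger differences were mostly downward: at any p, 129 genes were lower by 2-fold or more and 42 higher. At nominal p these counts were 111 genes lower and 16 higher. Of these 111 genes, 31 belong to the list of motile cilia genes, described first below. All genes named in what follows are therefore described by their values, and a gene called lower or higher "at nominal p" did not pass the adjusted threshold. Many of them were picked for a low p or for groups that do not overlap, so that their separation and small exact permutation p describe the choice and support nothing. Naaa, Penk and Enkur were picked by the study from these same data as reduced by early SAFit2, so that their values are no independent support.

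These counts depended on single mice. Without Vehicle 1, limma called 6 genes, all lower (Ccdc153, Fam216b, Cfap52, Dnah12, Tmem212 and Dnah6), with adjusted p from 0.00108 to 0.0314. Of these, Ccdc153, Fam216b, Cfap52, Dnah12 and Tmem212 were below -1 log2 CPM in all SAFit2 mice and passed the filter through the Vehicle mice alone, so that their calls support nothing. Dnah6 reached -1 in every Vehicle mouse but, of the SAFit2 mice, only in SAFit2 1. It too passed through the Vehicle mice, so that its call supports nothing. With quality weights for libraries limma called 10 genes, all lower, among them Dnah12, Ccdc153, Dnah6, Cfap52, Fam216b, Ak7 and Igf2. For Dnah12, Ccdc153, Dnah6, Cfap52 and Fam216b these calls support nothing either, for the same reason. Without Vehicle 4 and 5 limma called 1, Igf2, with 110 genes higher and 394 lower at nominal p. The count of genes higher, 193 with all mice, was 125 without SAFit2 1, 394 without SAFit2 2, 66 without SAFit2 3 and 100 without SAFit2 4. It was 437 without Vehicle 1, 303 without Vehicle 3 and 108 without Vehicle 5. Of the genes at nominal p, 38.4% were higher, and 48.7% after correction for GC content and length. This share was 22.2% without SAFit2 3, 26.6% without SAFit2 4, 25.8% without Vehicle 5, 51.6% without SAFit2 2, 51% without Vehicle 1 and 21.8% without Vehicle 4 and 5.

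**Figure D1:**
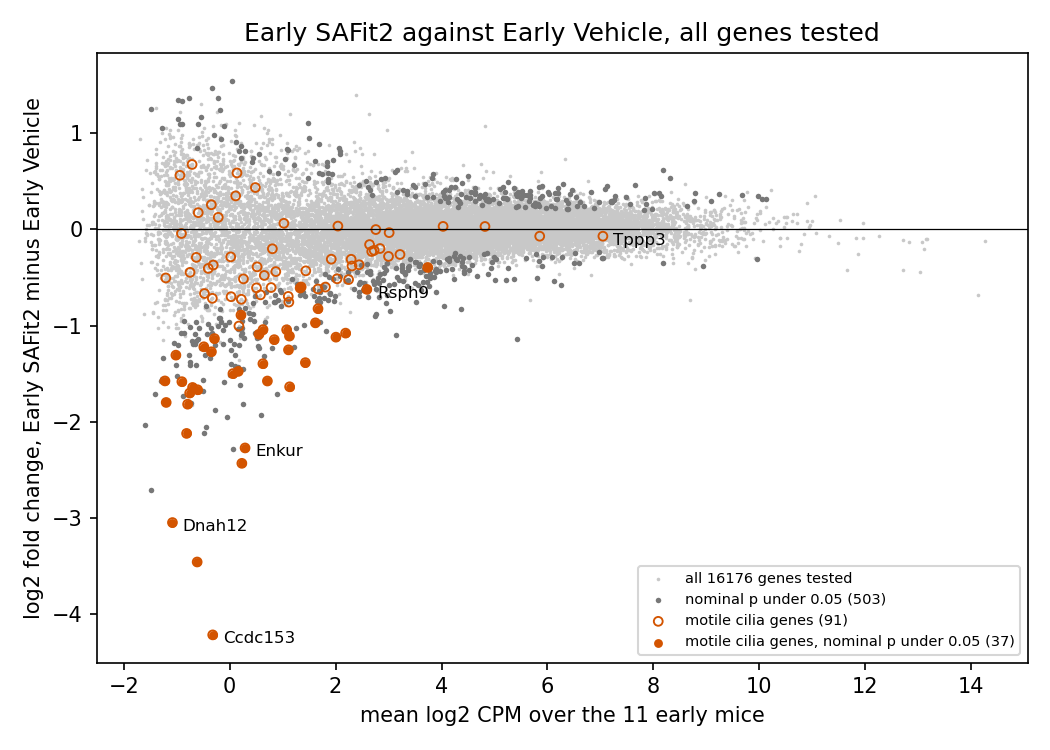
Mean log2 CPM over the 11 early mice (horizontal) and log2 fold change of Early SAFit2 minus Early Vehicle (vertical) of the 16176 genes tested, where dark grey points have a nominal p under 0.05 and orange circles are the 91 motile cilia genes, filled for the 37 lower at nominal p. Most of the strongest downward differences are at low levels, and Ccdc153 lies lowest at -4.22.

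Genes of the motile cilium were lower with SAFit2 more often than genes overall. Of 110 genes written down for the axoneme, 106 are in the table and 91 were tested, and 37 of these 91 were lower at nominal p (40.7%, against 1.92% of all genes) and 0 higher (1.19% of all genes). The list was written with earlier results of these data known, so this contrast is a description and no independent evidence. Their median log2 fold change was -0.61, against 0.01 over all genes, and 79 of 91 were below 0. No overlap between groups was found for 5 of them, all lower (Dnah12, Rsph9, Ak7, Tekt4 and Cfap45), against 0.26% of the genes tested. The mean log2 CPM of the list was 0.37, 0.50, 0.42, 0.44 and 0.65 in SAFit2 mice 1 to 5, and between 0.75 and 1.82 (median 1.21) in Vehicle mice. All SAFit2 mice thus lay below all Vehicle mice, and Vehicle 1 (0.75) and Vehicle 2 (0.87) lay nearest to them. In bulk tissue, fewer cells of a type and less RNA per cell cannot be told apart.

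A gene near the floor in all SAFit2 mice can pass the filter through the Vehicle mice alone, which favours lower genes among those tested. Without this filter, 46 of the 106 genes were lower at nominal p, against 361 of 17306 genes, and the median was -0.70. The study's methods also describe removing genes with low counts, which no alternative here undoes. Among the 38 tested members with a mean log2 CPM of at least 1 over all 11 mice, 12 were lower and the median was -0.41, while 1.35% of all genes at that level were lower. Among the 53 members under that level, 25 were lower with a median of -0.73, against 4.81% of all such genes. Without Vehicle 4 and 5, 32 of the 91 genes were lower, against 394 of all 16176 genes, and the median was -0.53. Leaving out any single mouse gave between 29 and 45 genes lower, against between 231 and 420 of all genes, and medians between -0.73 and -0.47. Over all alternatives the median was highest at -0.31, with a pseudocount of 2. The summed level of the 106 genes was between 392 and 419 CPM in SAFit2 and between 435 and 628 CPM in Vehicle mice. The most abundant member, Tppp3, which promotes tubulin assembly and is not restricted to motile cilia, was between 6.70 and 7.20 log2 CPM in SAFit2 and between 6.90 and 7.41 in Vehicle mice.

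**Figure D2:**
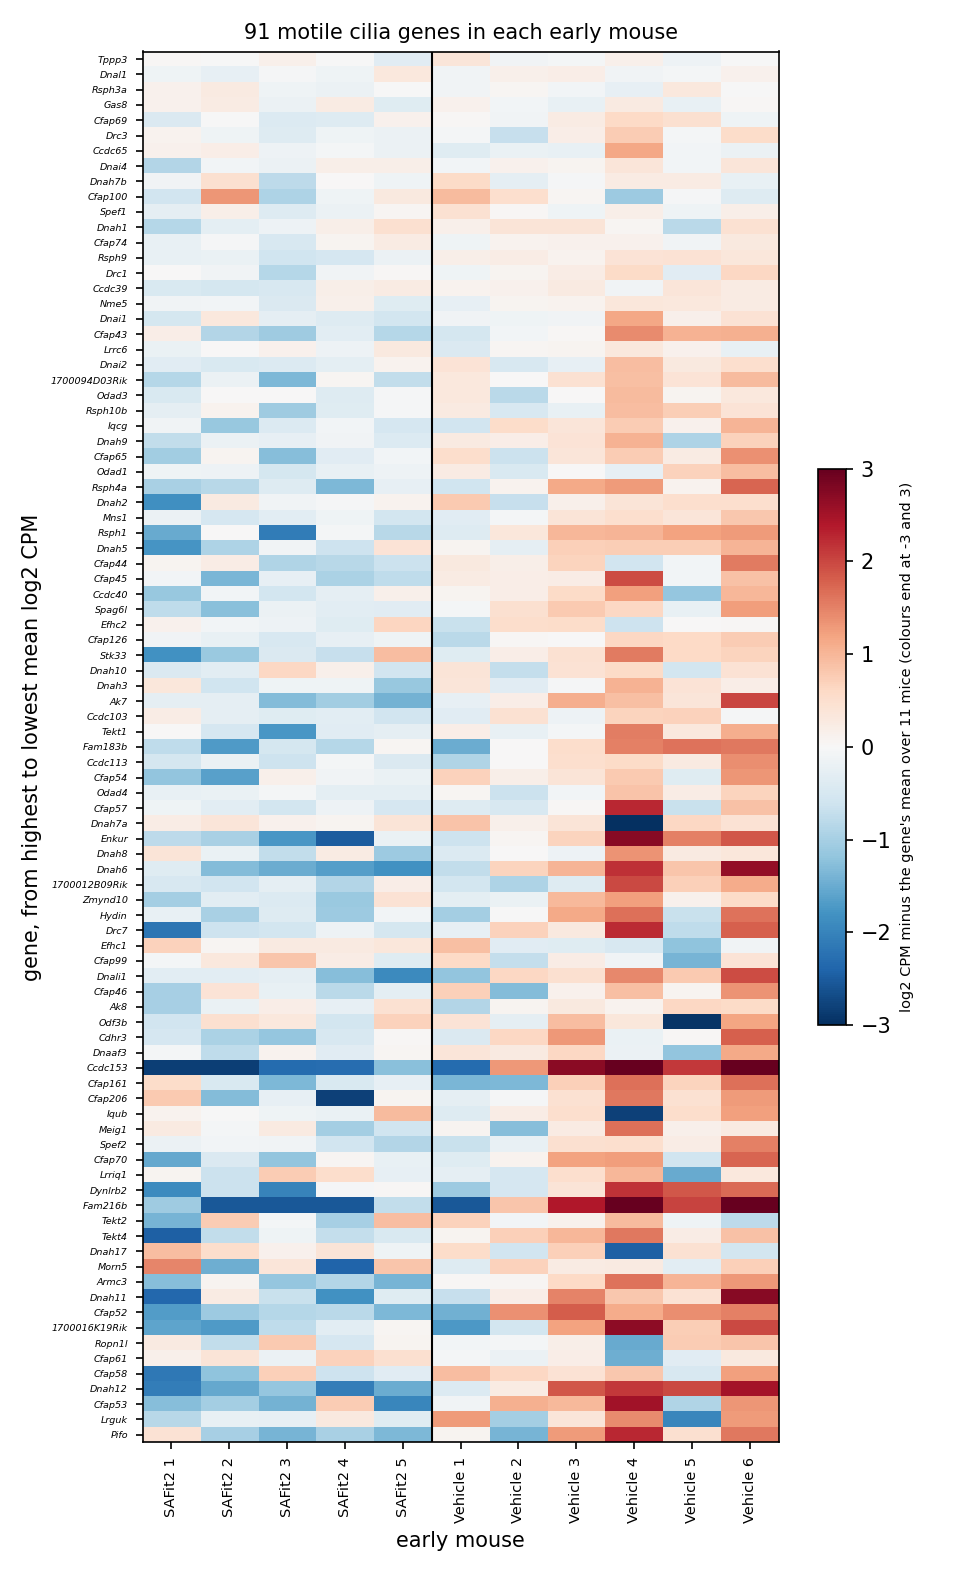
Log2 CPM of the 91 motile cilia genes tested in each of the 11 early mice, minus the mean of the gene over these mice, with genes ordered from highest to lowest mean, blue below and red above the gene's mean and colours ending at -3 and 3. SAFit2 mice are mostly blue and Vehicle 3, 4 and 6 mostly red, while the most abundant genes, led by Tppp3, are pale.

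Dynein heavy chains are the motors of the beat. Of 13 on the list, 4 were lower at nominal p (against 1.92% of all genes), with a median log2 fold change of -0.60. Dnah12, an inner arm chain (Entrez gene 110083, chr14:26691554-26892719, GRCm38.p6), was at -3.15, -2.61, -2.23, -3.15 and -2.57 log2 CPM in SAFit2 mice 1 to 5 and between -1.49 and 1.42 (median 0.84) in Vehicle mice. The groups did not overlap, and the values near the floor stand for 0, 1, 2, 0 and 1 reads, against 5 to 68 reads in Vehicle mice. The log2 fold change was -3.05 ± 0.55 (SE), the lowest p of all genes, with a limma adjusted p of 0.747 and an exact permutation p of 0.00433. At so few reads its size depends on the constant added before the log. Dnah6, another inner arm chain, was at -0.14, -1.08, -1.27, -1.42 and -1.58 in SAFit2 mice and between -0.51 and 2.87 (median 1.16) in Vehicle mice. Vehicle 1 was the lowest Vehicle mouse and lay below SAFit2 1. For Dnah6 the log2 fold change was -2.43 ± 0.51 (SE; limma adjusted p 0.945). Dnah5, a chain of the outer arm, had a log2 fold change of -1.11 ± 0.36. Dnah1, an inner arm chain with more reads, overlapped fully, with 1.83 to 3.16 in SAFit2 and 1.88 to 3.13 in Vehicle mice.

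Ccdc153, a part of the nexin-dynein regulatory complex (Entrez gene 270150, chr9:44240677-44247306), had the strongest downward fold change of the genes tested. It was at -3.15, -3.15, -2.62, -2.60 and -1.58 log2 CPM in SAFit2 mice 1 to 5, and at -2.63, 2.09 and 3.67 (lowest, median and highest) in Vehicle mice. Reads were 0, 0, 1, 1 and 4 in SAFit2 mice, and 1 in Vehicle 1 against 37 to 273 in the other Vehicle mice. Vehicle 1 was thus as low as the SAFit2 mice, and the groups overlapped only through it. The log2 fold change was -4.22 ± 0.86 (SE; limma adjusted p 0.945, exact permutation p 0.0108), and -5.06 without Vehicle 1 (limma adjusted p 0.00108). As Ccdc153 passed the filter through the Vehicle mice alone, this call supports nothing. Fam216b and Cfap52, a protein inside the microtubules, showed the same low value of Vehicle 1. Fam216b was at the floor in Vehicle 1 and between 0.22 and 2.88 in the other Vehicle mice, with a log2 fold change of -3.46 ± 0.87. Cfap52 was at -2.25 in Vehicle 1 and between 0.31 and 1.01 in the others, with a log2 fold change of -2.12 ± 0.54.

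Enkur, a calmodulin-binding axoneme protein inside the microtubules (Entrez gene 71233), was at -0.50, -0.67, -1.46, -2.20 and 0.08 log2 CPM in SAFit2 mice 1 to 5 and between -0.33 and 3.01 (median 1.38) in Vehicle mice. Only SAFit2 5 lay above the lowest Vehicle mouse, which was again Vehicle 1. Its log2 fold change was -2.27 ± 0.56 (SE; limma adjusted p 0.945, exact permutation p 0.00866). Of 5 radial spoke genes, 3 were lower at nominal p (against 1.92% of all genes). Rsph9, a spoke head protein, was at 2.38, 2.38, 2.00, 2.09 and 2.40 in SAFit2 mice and between 2.69 and 3.02 (median 2.88) in Vehicle mice. The groups did not overlap, which its choice required, and both were narrow. Its log2 fold change was -0.62 ± 0.16 (SE; limma adjusted p 0.945, exact permutation p 0.00216, the smallest that groups of 5 and 6 allow and near to fixed by that choice). Rsph1 and Rsph4a, further spoke head proteins, had log2 fold changes of -1.64 ± 0.41 and -1.39 ± 0.38.

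Of the 19 tested list members named for cilia and flagella (Cfap), 10 were lower at nominal p, with a median log2 fold change of -0.76. Over all 30 Cfap genes tested, on the list or not, 11 were lower and the median was -0.42, while 1.92% of all genes were lower. Cfap91, which links spokes to the axoneme and is not on the list, was between -1.41 and -0.16 log2 CPM in SAFit2 and between -0.16 and 2.25 in Vehicle mice, without overlap. Wdr66, a calmodulin-associated axoneme protein, is also called Cfap251 and was written on the list under that name, which was not matched to the table, so that it is not among the 91. It was at -0.80, 0.64, -1.11, 0.51 and 0.54 in SAFit2 mice 1 to 5 and between 1.02 and 2.58 in Vehicle mice. Ak7, an adenylate kinase of cilia, was between -0.70 and 0.45 in SAFit2 and between 0.47 and 2.71 in Vehicle mice. For Wdr66 and Ak7 too the groups did not overlap, with log2 fold changes of -1.71 ± 0.38 and -1.58 ± 0.39. The tektins, filaments of the axoneme wall, had 2 of 3 genes lower at nominal p (again against 1.92%). Tekt4 did not overlap (-3.15 to -0.82 against -0.62 to 0.88), and Tekt1 had a log2 fold change of -1.04 ± 0.39. Also outside the list, 2410004P03Rik was at -3.15, -0.35, -0.38, -1.23 and -0.84 in SAFit2 mice and between 0.26 and 2.13 in Vehicle mice.

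Regulators of ciliogenesis, which are transcription factors and centriole proteins, held no gene at nominal p. Of 13 tested, 0 were lower and 0 higher with limma at nominal p (voom was not counted by list), and the median log2 fold change was -0.13. Foxj1, the master regulator of motile ciliogenesis, was at 4.25, 4.05, 4.49, 4.14 and 3.60 log2 CPM in SAFit2 mice 1 to 5 and between 3.78 and 4.34 (median 4.15) in Vehicle mice. The groups lay on top of each other, with a log2 fold change of 0.02 ± 0.16 (limma adjusted p 0.997, exact permutation p 0.892) whose sign turned under 8 of 28 alternatives. Rfx2, which binds promoters of cilia genes, was between 0.14 and 1.15 in SAFit2 and between 0.52 and 1.41 in Vehicle mice. Gmnc, which starts the multiciliated cell programme, was between -1.41 and 0.84 and between 0.02 and 1.19, respectively. Both lay lower with SAFit2 by -0.52 ± 0.27 and -0.77 ± 0.37 on the log2 scale, with exact permutation p of 0.0498 and 0.0519. Rfx4, of the same family as Rfx2, was between 4.13 and 4.39 in SAFit2 and between 4.34 and 4.70 in Vehicle mice, with a log2 fold change of -0.23 ± 0.11 (limma adjusted p 0.99, exact permutation p 0.0173).

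Since RFX factors bind promoters of cilia genes, promoters of the motile cilia list were searched for the letters GTTGCC, the core of the RFX site, and for GTTGCCA, which contains it, on both strands. Windows ran from 250 bases before to 50 bases after each RefSeq start of a gene, and 76 of the 91 genes tested had such a window in RefSeq (85 windows). GTTGCC was in 42.4% of these windows, against 12.5% of all 32851 windows and 12.8% of windows of genes tested. GTTGCCA was in 20% of them, against 4.38% of all windows. Of the windows of list genes lower at nominal p, 43.8% held GTTGCC, close to the share of the whole list. A match describes these letters only and is not a shown binding site. The RefSeq windows of Ccdc153 (chr9:44240427-44240726, plus strand), Enkur (chr2:21205316-21205615, minus strand) and Tekt1 (chr11:72361833-72362132, minus strand), all on GRCm38.p6, are shown because they belong to lower genes with a match. The Tekt1 window lies at a start inside the annotated gene, which ends at 72362442. Each is written 5′ to 3′ with the matching letters in capitals, where GGCAAC is GTTGCC on the other strand.
Ccdc153: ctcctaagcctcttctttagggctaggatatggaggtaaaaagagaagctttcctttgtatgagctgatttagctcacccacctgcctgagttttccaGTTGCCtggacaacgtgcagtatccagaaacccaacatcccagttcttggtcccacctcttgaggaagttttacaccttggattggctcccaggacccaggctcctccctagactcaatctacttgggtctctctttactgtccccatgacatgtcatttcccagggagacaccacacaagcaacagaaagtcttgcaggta
Enkur: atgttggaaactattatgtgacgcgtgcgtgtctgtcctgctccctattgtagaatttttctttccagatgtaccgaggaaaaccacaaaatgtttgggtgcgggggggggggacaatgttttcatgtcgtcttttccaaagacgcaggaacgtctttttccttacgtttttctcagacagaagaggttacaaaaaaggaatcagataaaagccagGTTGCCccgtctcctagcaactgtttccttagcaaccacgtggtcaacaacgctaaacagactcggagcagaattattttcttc
Tekt1: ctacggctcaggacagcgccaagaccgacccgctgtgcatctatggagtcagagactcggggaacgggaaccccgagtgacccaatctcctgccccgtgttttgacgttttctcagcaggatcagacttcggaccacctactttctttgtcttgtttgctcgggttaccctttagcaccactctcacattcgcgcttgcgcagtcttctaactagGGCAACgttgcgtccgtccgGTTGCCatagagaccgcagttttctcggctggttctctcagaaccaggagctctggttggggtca

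Genes for transport and the gate of the primary cilium centred on 0. Of 54 genes for transport within cilia and the gate at their base, 2 were higher at nominal p (3.7%, against 1.19% of all genes) and 0 lower (against 1.92%), and the median log2 fold change was -0.00. The genes higher were Tmem216, a gate protein (2.46 to 2.86 log2 CPM against 1.75 to 2.59), and Inpp5e, a phosphatase of the ciliary membrane (4.31 to 4.58 against 3.89 to 4.59). Of 23 receptors and hedgehog pathway genes of neuronal cilia, 0 were lower and 0 higher with limma at nominal p. Their median was 0.14, and -0.07 without Vehicle 4 and 5.

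Ependymal genes that are not parts of cilia mostly had fold changes below 0. Of 18 tested, 6 were lower at nominal p (33.3%, against 1.92% of all genes) and 1 higher (1.19% of all genes). The 6 include Pkd1l2 and Myo3b, described below with neurons of the central canal, and Vtn, also on the list of mural cells and fibroblasts. The list had a median log2 fold change of -0.33, and -0.23 without Vehicle 4 and 5. Their mean log2 CPM was 2.86, 2.82, 3.02, 2.86 and 2.71 in SAFit2 mice 1 to 5 and between 2.94 and 3.75 (median 3.52) in Vehicle mice, with SAFit2 3 above Vehicle 1. Their summed level was 916 to 1084 CPM and 968 to 1274 CPM, with Aqp4, the water channel of astrocytes and ependyma, as its most abundant member, which overlapped (8.72 to 9.20 against 8.67 to 9.59 log2 CPM). Tmem212 was at the floor in SAFit2 1, 2, 3 and 5, at -2.20 in SAFit2 4, at the floor in Vehicle 1 and between -0.49 and 1.25 in the other Vehicle mice. Its log2 fold change was -2.71 ± 0.67 (SE; limma adjusted p 0.945). Vim, an intermediate filament, had a log2 fold change of -0.35 ± 0.16, and Mia, a small secreted protein, of -0.74 ± 0.30. With a filter at log2 CPM 1, 3 ependymal genes were lower, against 196 of all 13701 genes. The part of ependymal cell number in the values of cilia genes was not tested.

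Neurons that contact the fluid of the central canal are marked by the channel Pkd2l1 and lie among ependymal cells. Pkd2l1 overlapped between groups, with 1.99 to 2.97 log2 CPM in SAFit2 and 1.95 to 3.59 in Vehicle mice. Pkd1l2, a related channel protein already counted among the ependymal genes, was at -2.03, -1.91, -0.38, -1.23 and -1.58 in SAFit2 mice 1 to 5 and between -1.30 and 1.92 (median 0.35) in Vehicle mice. Myo3b, a myosin of actin protrusions counted there too, was between -3.15 and -0.96 in SAFit2 and between -2.63 and 0.70 in Vehicle mice. Both were lower at nominal p, with log2 fold changes of -1.69 ± 0.59 and -1.72 ± 0.61, and both overlapped between the groups.

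**Figure D3:**
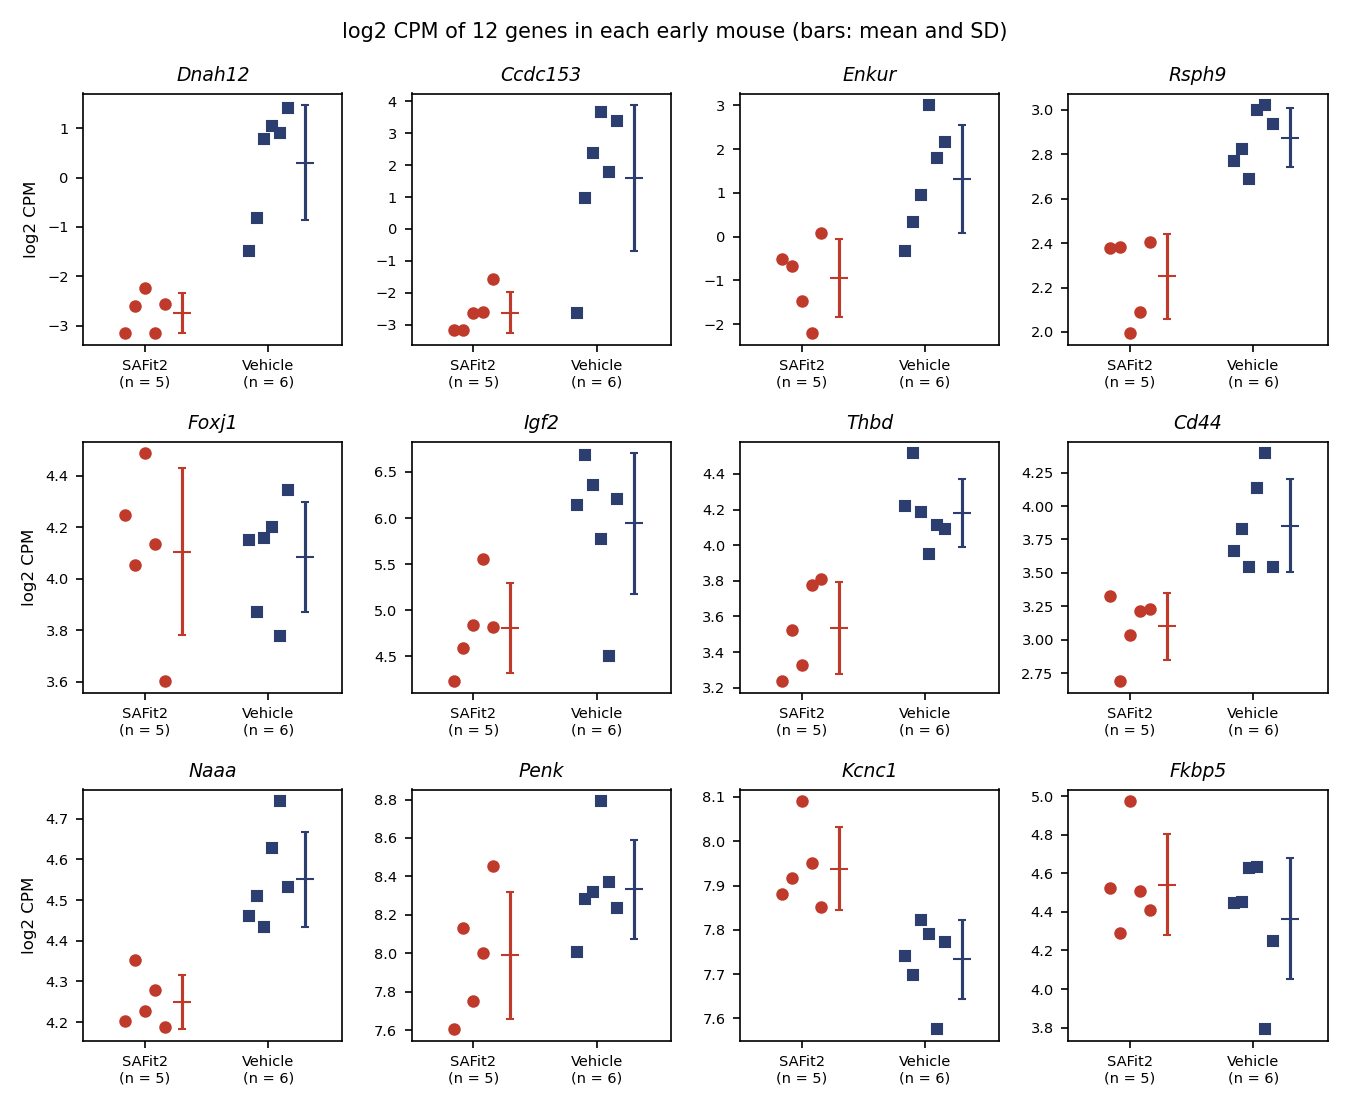
Log2 CPM of 12 genes in each Early SAFit2 (red circles, n = 5) and Early Vehicle mouse (blue squares, n = 6), with the mean and SD of each group beside the points and mice in the order of their replicate numbers. Dnah12, Rsph9, Thbd, Cd44, Naaa and Kcnc1 do not overlap between the groups, and Foxj1, Penk and Fkbp5 do.

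Meningeal genes mostly had fold changes below 0. Of 16 genes of choroid plexus and meninges tested, 3 were lower at nominal p (18.8%, against 1.92% of all genes) and 0 higher (1.19% of all genes), and the median log2 fold change was -0.48, with 15 of 16 below 0. The count was 6 without SAFit2 4, 5 without Vehicle 4, 7 without Vehicle 5 and 9 without both Vehicle 4 and 5, where the median was -0.61. In the same settings 276, 376, 311 and 394 of all genes were lower, against 310 with all mice. The defining choroid plexus genes Ttr, Folr1, Kcne2 and Otx2 were not among the genes tested. Igf2, a growth factor made by the meninges and vessels, was at 4.23, 4.59, 4.84, 5.56 and 4.82 log2 CPM in SAFit2 mice 1 to 5 and between 4.51 and 6.68 (median 6.17) in Vehicle mice. Vehicle 5 (4.51) was the only Vehicle mouse within the SAFit2 range. For Igf2 the log2 fold change was -1.14 ± 0.31 (SE; limma adjusted p 0.99), and -1.54 without Vehicle 4 and 5 (limma adjusted p 0.0297). Aldh1a2, which makes retinoic acid in the meninges, was between 3.17 and 3.81 in SAFit2 and between 3.52 and 4.26 in Vehicle mice. Foxc1, a transcription factor of meningeal fibroblasts, was between 2.36 and 2.80 and between 2.73 and 3.43, respectively. The most abundant gene of the list, Ptgds, a prostaglandin synthase, overlapped (8.24 to 9.07 against 8.17 to 9.53). Dcn, a matrix proteoglycan of fibroblasts, also overlapped, with a log2 fold change of -0.16 ± 0.23. The summed level was 577 to 836 CPM in SAFit2 and 651 to 1252 CPM in Vehicle mice. How much meninges came with each sample was not tested.

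**Figure D4:**
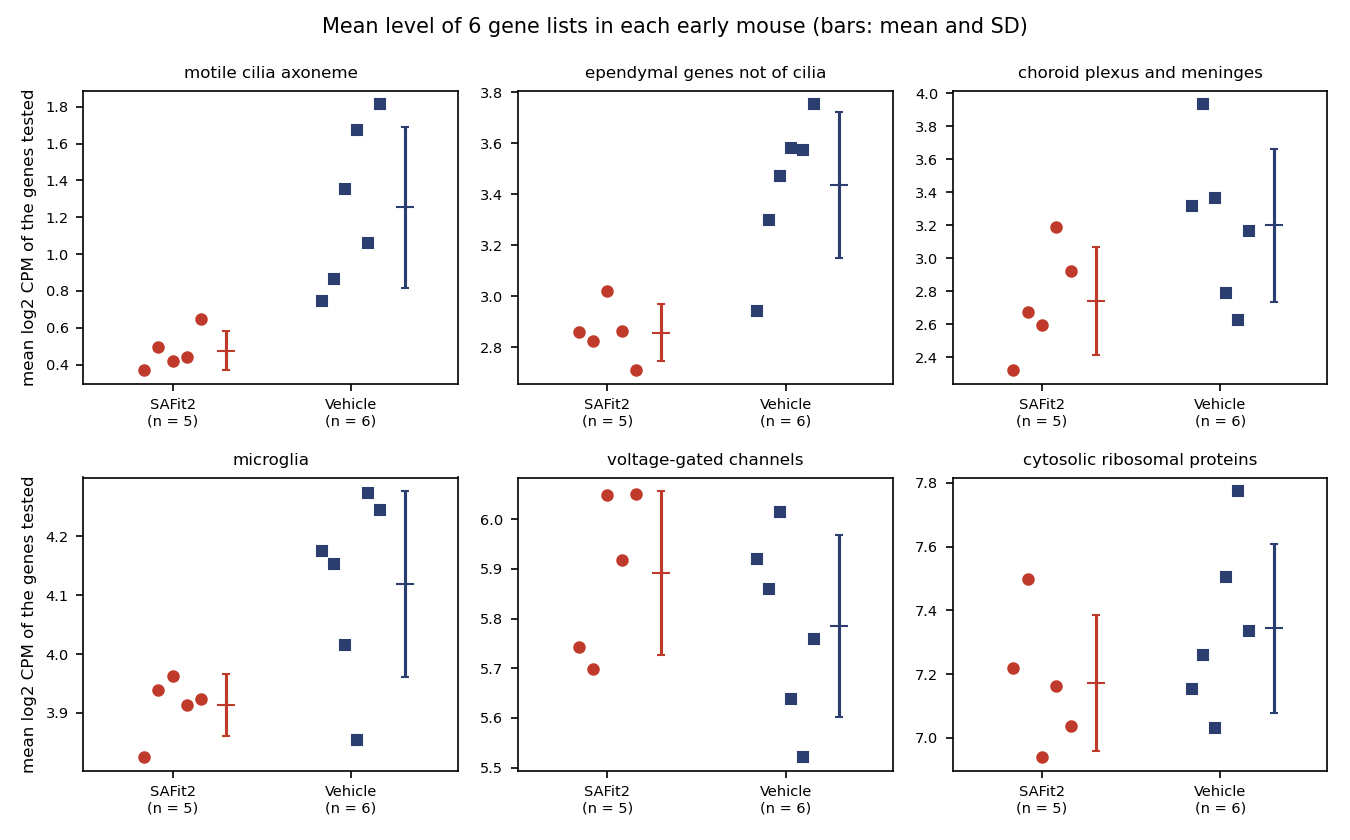
Mean log2 CPM of the tested genes of 6 lists in each Early SAFit2 (red circles) and Early Vehicle mouse (blue squares), with the mean and SD of each group beside the points. The motile cilia list does not overlap between groups (0.37 to 0.65 against 0.75 to 1.82), and the other lists do.

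The genes lower without overlap also included Thbd, Cd44, Aplnr and C1qtnf3, which belong to no common list. Thbd, the thrombin receptor thrombomodulin of endothelium, was at 3.24, 3.52, 3.33, 3.78 and 3.81 log2 CPM in SAFit2 mice 1 to 5 and between 3.95 and 4.52 (median 4.15) in Vehicle mice. Its log2 fold change was -0.65 ± 0.15 (SE; limma adjusted p 0.945, exact permutation p 0.00216). Cd44, a receptor for hyaluronan, was at 3.33, 2.69, 3.04, 3.22 and 3.23 and between 3.54 and 4.40 (median 3.75), respectively. Aplnr, the apelin receptor, lay between 2.97 and 3.71 in SAFit2 and between 3.83 and 4.19 in Vehicle mice. C1qtnf3, a secreted protein related to complement C1q, was at -1.41, -1.43, 0.60, 0.08 and -0.16 and between 0.69 and 2.04 (median 1.65), respectively. In each of these genes every SAFit2 mouse was below every Vehicle mouse, as their choice required. The log2 fold changes were -0.75 ± 0.18 for Cd44, -0.59 ± 0.15 for Aplnr and -1.93 ± 0.42 for C1qtnf3.

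The endothelial list centred on 0, and the microglia list had a median slightly below 0. Of 19 endothelial genes, 0 were lower and 0 higher with limma at nominal p, with a median log2 fold change of -0.01. Of 23 genes of mural cells and fibroblasts, 1 was lower (4.35%, against 1.92% of all genes), Vtn, which encodes vitronectin and is also on the ependymal list (5.50 to 6.10 against 5.80 to 6.65 log2 CPM). The median of these 23 genes was -0.135, turned to 0.09 without Vehicle 1 and was -0.35 without Vehicle 4 and 5. Of 20 microglia genes, 1 was lower at nominal p (5%), and 19 had a fold change below 0 (against 47.9% of all genes), with a median of -0.18. That gene was Ptprc, which encodes the leukocyte surface protein CD45. It was at 1.59, 1.48, 1.02, 1.68 and 1.86 in SAFit2 mice 1 to 5 and between 1.88 and 2.88 (median 2.09) in Vehicle mice, without overlap, although the highest SAFit2 and the lowest Vehicle mouse nearly met. The summed microglia level was 457 to 487 CPM in SAFit2 and 481 to 577 CPM in Vehicle mice.

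Of 23 interferon-stimulated genes, 3 were lower (13%, against 1.92% of all genes) and 0 higher (against 1.19%) at nominal p. Their median log2 fold change was -0.11, and between -0.19 and -0.04 with 1 mouse left out. They included Gbp2, a guanylate-binding protein (1.91 to 2.78 log2 CPM against 2.59 to 3.57), and Ifitm3, which blocks virus entry (3.56 to 4.11 against 3.71 to 4.41). Of 19 genes of antigen presentation, 1 was lower (5.26%, against 1.92% of all genes), with a median of -0.15 that was between -0.27 and -0.02 with 1 mouse left out. Of 18 genes of NF-kappaB signalling, 1 was lower (5.56%), with a median of 0.07 that turned to -0.05 without Vehicle 4 and 5. Astrocyte genes centred on 0, with 2 of 20 lower at nominal p (10%, against 1.92% of all genes). Gfap, their intermediate filament, was at 9.79, 9.57, 10.11, 9.92 and 9.61 in SAFit2 mice 1 to 5 and between 9.83 and 10.33 (median 10.15) in Vehicle mice. SAFit2 3 and 4 lay within the Vehicle range and the others below it. Slc1a3, a glutamate transporter, had a log2 fold change of -0.24 ± 0.10. For oligodendrocytes and their precursors, 0 of 22 and 0 of 15 genes differed with limma at nominal p, with medians of -0.08 and -0.06.

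**Figure D5:**
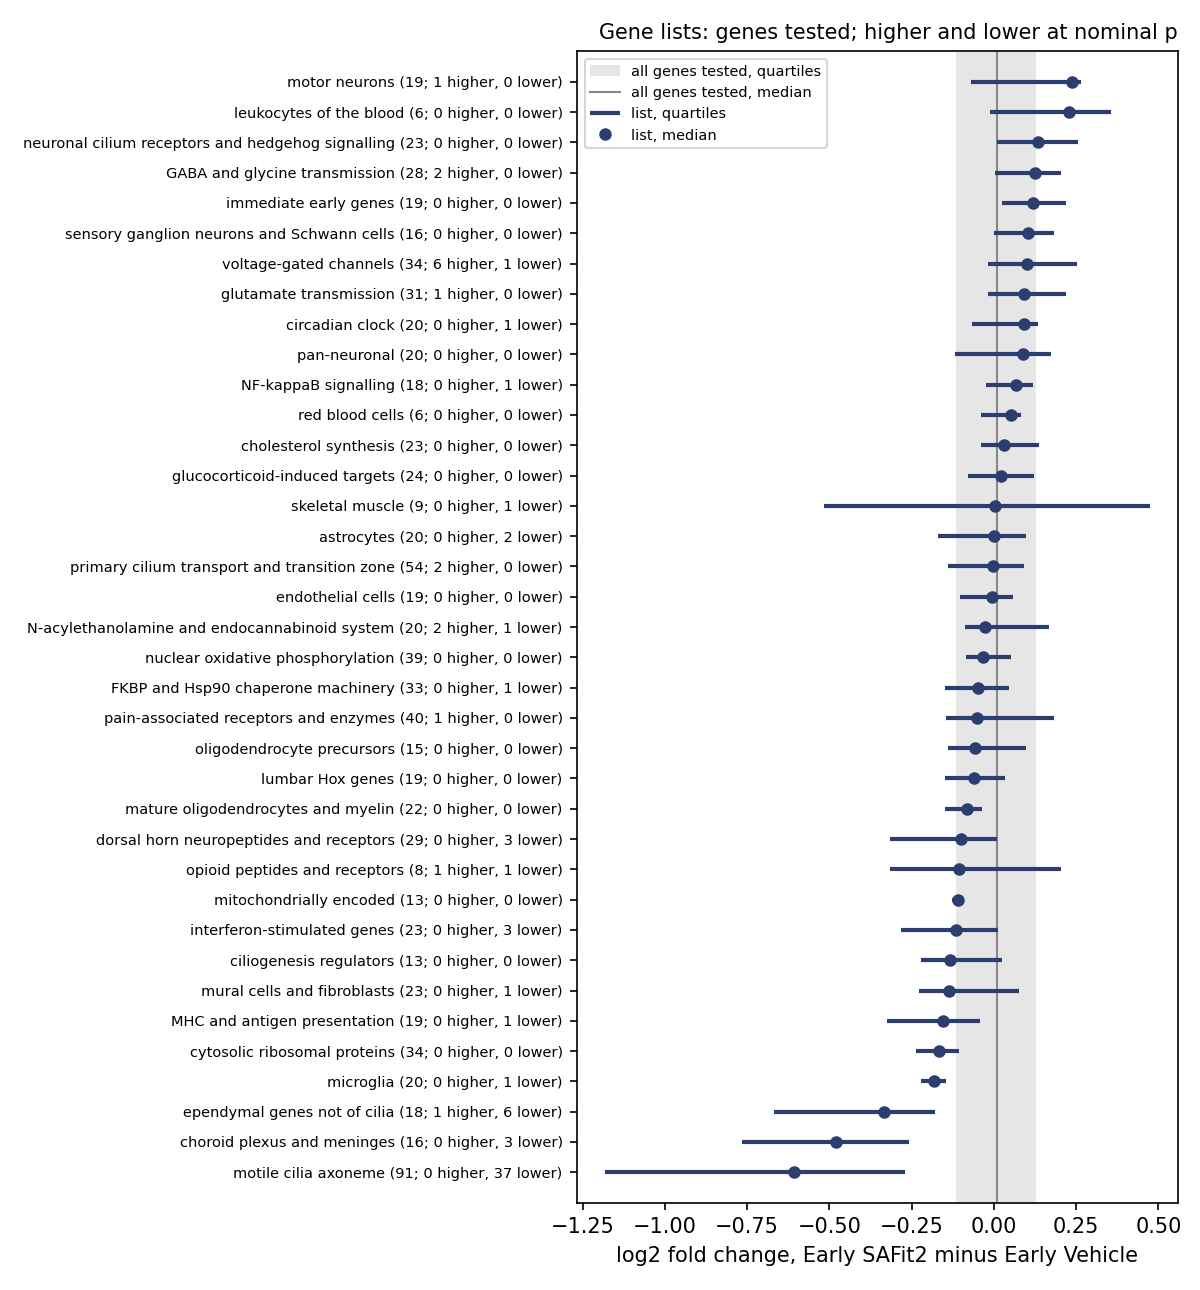
Median (points) and quartiles (lines) of the log2 fold change of Early SAFit2 minus Early Vehicle over the tested genes of each of 37 lists, ordered by median, with the genes tested and the genes higher and lower at nominal p in brackets and the quartiles and median of all genes tested as a grey band and line. The motile cilia, meningeal and ependymal lists lie lowest, with medians of -0.61, -0.48 and -0.33.

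Naaa encodes the lysosomal enzyme that breaks down palmitoylethanolamide, an N-acylethanolamine that dampens inflammation and pain. It was at 4.20, 4.35, 4.23, 4.28 and 4.19 log2 CPM in SAFit2 mice 1 to 5 and between 4.43 and 4.74 (median 4.52) in Vehicle mice. The groups did not overlap, and the gap between them was small. The log2 fold change was -0.30 ± 0.11 (SE; limma adjusted p 0.99, exact permutation p 0.00216), and Naaa stayed at nominal p in 27 of 28 alternatives. As the study had picked Naaa from these same data and the alternatives reuse the same mice, neither is independent support. Faah, which breaks down the related anandamide, overlapped (4.67 to 5.03 against 4.56 to 4.97). Of 20 genes of this system tested, 1 was lower (5%, against 1.92% of all genes) and 2 were higher (10%, against 1.19%) at nominal p, with a median of -0.03. The genes higher were Dagla, which makes the endocannabinoid 2-arachidonoylglycerol (4.45 to 5.37 against 3.37 to 4.89), and Pla2g4e, which makes precursors of N-acylethanolamines (1.51 to 2.40 against 0.99 to 1.96). Both overlapped between groups. The lowest Vehicle mice for Dagla were Vehicle 4 (3.67) and Vehicle 5 (3.37), and its log2 fold change of 0.56 ± 0.25 (exact permutation p 0.123) was 0.19 without them.

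A few peptides of dorsal horn neurons were lower at nominal p. Penk, the precursor of enkephalins, was at 7.61, 8.13, 7.75, 8.001 and 8.45 log2 CPM in SAFit2 mice 1 to 5 and between 8.004 and 8.79 (median 8.30) in Vehicle mice. SAFit2 2 and 5 lay within the Vehicle range. For Penk the log2 fold change was -0.35 ± 0.16 (SE; limma adjusted p 0.99, exact permutation p 0.0866), and Penk had a nominal p under 0.05 in 18 of 28 alternatives. Tac1, the precursor of substance P, was at 5.06, 5.66, 5.02, 5.71 and 6.19 and between 5.70 and 6.56 (median 5.91), respectively. Grp, the itch peptide gastrin-releasing peptide, was between 2.73 and 4.07 in SAFit2 and between 3.20 and 4.36 in Vehicle mice. Nmu, neuromedin U, was between 2.98 and 3.83 and between 3.45 and 4.85. These 3 were the members lower at nominal p among 29 peptides and receptors of the dorsal horn (10.3%, against 1.92% of all genes), of which 0 were higher (1.19% of all genes), and the median of the 29 was -0.10, and between -0.21 and -0.05 with 1 mouse left out. Without Vehicle 4 and 5 the log2 fold changes were smaller, at -0.22 for Penk, -0.31 for Tac1 (-0.50 with all mice) and -0.25 for Nmu (-0.55 with all mice). The median of the 29 moved the other way without these mice, to -0.19. For Grp the log2 fold change was -0.63, and between -0.83 and -0.50 over all alternatives.

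Among 8 opioid peptides and receptors, Penk was lower and Oprm1, the µ receptor of enkephalins and morphine, was higher at nominal p (12.5% each, against 1.92% and 1.19% of all genes). Oprm1 was at 0.30, -1.08, 0.87, 0.22 and 0.16 log2 CPM in SAFit2 mice 1 to 5 and between -3.15 and -0.42 (median -0.72) in Vehicle mice. SAFit2 2 lay below 5 of the Vehicle mice, and Vehicle 4 was at the floor. Its log2 fold change was 1.17 ± 0.52 (SE; limma adjusted p 0.99, exact permutation p 0.039), and 0.77 without Vehicle 4 and 5. Pdyn, the precursor of dynorphins, had a log2 fold change of -0.31 ± 0.19.

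Among voltage-gated channels a few genes were higher. Of 34 tested, 6 were higher at nominal p (17.6%, against 1.19% of all genes) and 1 lower (Scn3b, a sodium channel subunit, with a log2 fold change of -0.30 ± 0.14), with a median log2 fold change of 0.10 that turned to -0.05 without Vehicle 4 and 5 and was 0.01 after GC and length correction. The count was 2 without SAFit2 3, 2 without SAFit2 4, 3 without Vehicle 2, and 2 with GC and length correction and the replicate block. In the same settings 66, 100, 153 and 380 of all genes were higher, against 193 in the main fit, the 380 among 15691 genes. Kcnc1, a Kv3 potassium channel that allows rapid firing, was at 7.88, 7.92, 8.09, 7.95 and 7.85 log2 CPM in SAFit2 mice 1 to 5 and between 7.58 and 7.82 (median 7.76) in Vehicle mice. Kcnc1 was among the genes picked for groups that do not overlap, and SAFit2 5 and the highest Vehicle mouse nearly met. The log2 fold change was 0.20 ± 0.09 (SE; limma adjusted p 0.99, exact permutation p 0.00216). It had a nominal p under 0.05 in 19 of 28 alternatives and was 0.08 after GC and length correction. Scn4b, an auxiliary subunit of sodium channels, was between 8.27 and 8.96 in SAFit2 and between 7.45 and 8.32 in Vehicle mice. The log2 fold changes were 0.53 ± 0.16 for Scn4b and 0.30 ± 0.13 for Kcna1, a Kv1 channel of axons. For Kcna1, SAFit2 1 was the highest mouse (9.39), and the difference was between 0.18 and 0.37 over all alternatives. Hapln4, a link protein of the extracellular matrix, was chosen after its values were seen and was between 7.07 and 7.55 in SAFit2 and between 6.38 and 7.16 in Vehicle mice.

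Inhibitory and excitatory transmission had few genes at nominal p. Of 28 genes of GABA and glycine transmission, 2 were higher (7.14%, against 1.19% of all genes), with a median log2 fold change of 0.12, and 0.02 without Vehicle 4 and 5. They were Glra1, a glycine receptor subunit (5.16 to 5.69 log2 CPM against 4.87 to 5.42), and Slc32a1, which loads both transmitters into vesicles (7.16 to 7.68 against 6.62 to 7.34). For Slc32a1 the log2 fold change of 0.28 ± 0.13 was 0.16 without Vehicle 4 and 5. Slc6a5, the glycine transporter of glycinergic neurons, varied widely. It was at 5.55, 3.80, 6.56, 5.32 and 5.75 in SAFit2 mice 1 to 5 and between 1.47 and 5.69 (median 4.77) in Vehicle mice, and its difference was within that spread (1.07 ± 0.61). Vehicle 5 was the lowest mouse, and the log2 fold change of Slc6a5 was between 0.28 and 1.47 over all alternatives. Of 31 genes of glutamate transmission, 1 was higher at nominal p (3.23%, against 1.19% of all genes), Grik4, a kainate receptor subunit (4.37 to 4.71 against 4.01 to 4.41), and 0 were lower. Of 20 pan-neuronal genes, 0 were lower and 0 higher with limma at nominal p, with a median of 0.09. That median was between 0.018 and 0.125 with 1 mouse left out.

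The remaining genes higher without overlap have varied roles. Gm5784 was at 2.66, 2.13, 2.08, 2.13 and 1.83 log2 CPM in SAFit2 mice 1 to 5 and between 0.94 and 1.63 (median 1.25) in Vehicle mice, with a log2 fold change of 0.89 ± 0.21. Faap24, of the Fanconi anaemia DNA repair complex, was between 2.05 and 2.35 in SAFit2 and between 1.41 and 1.74 in Vehicle mice. Tigar, which limits glycolysis, was between 4.91 and 5.50 and between 4.72 and 4.91, respectively. Further metabolic genes were Gls2, a glutaminase (5.32 to 5.51 against 4.55 to 5.30), and Gys1, a glycogen synthase (4.17 to 4.43 against 3.52 to 4.13, nominal p above the threshold). Their log2 fold changes of 0.32 and 0.28 were 0.17 and 0.18 without Vehicle 4 and 5. Ube2e2, a ubiquitin-conjugating enzyme, had a log2 fold change of 0.28 ± 0.11, and Rad51ap2, related to a recombination protein, of 1.35 ± 0.48 at low reads.

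The drug's target and the stress axis held few genes at nominal p. Fkbp5 was at 4.53, 4.29, 4.98, 4.51 and 4.41 log2 CPM in SAFit2 mice 1 to 5 and between 3.79 and 4.63 (median 4.45) in Vehicle mice. SAFit2 3 was the highest mouse and the other SAFit2 mice lay within the Vehicle range. The log2 fold change was 0.17 ± 0.16 (SE; limma adjusted p 0.99, exact permutation p 0.4). Vehicle 5 was the lowest mouse (3.79), and the Fkbp5 difference was between 0.06 and 0.24 over all alternatives. Fkbp4, the FKBP with the opposite action on the glucocorticoid receptor, was between 7.64 and 7.92 and between 7.69 and 7.97. Of 33 FKBP and Hsp90 chaperone genes, 1 was lower at nominal p (3.03%, near the 1.92% of all genes), Hspa5, a chaperone of the endoplasmic reticulum (8.44 to 9.07 against 8.53 to 9.50), whose log2 fold change of -0.38 ± 0.17 was -0.20 without Vehicle 4 and 5. Their median was -0.05, and 0.03 without Vehicle 4 and 5. Of 24 genes induced by glucocorticoids, 0 were lower and 0 higher with limma at nominal p, with a median of 0.02. That median was between -0.076 and 0.105 with 1 mouse left out, and its sign turned under 5 of 28 alternatives. Among these genes, Sgk1, a kinase, had a log2 fold change of 0.39 ± 0.19 and Tsc22d3, a glucocorticoid-induced leucine zipper protein, of 0.20 ± 0.13. For Sgk1, SAFit2 3 was the lowest mouse (4.88). Its log2 fold change was between 0.26 and 0.59 over all alternatives, with a nominal p under 0.05 in 3 of 28. Of 20 clock genes, 1 was lower at nominal p (5%, against 1.92% of all genes), Nfil3, a repressor (2.98 to 3.42 against 3.29 to 3.71). Of 19 immediate early genes, 0 were lower and 0 higher with limma at nominal p, while 18 were above 0, with a median of 0.12 that turned to -0.00 without Vehicle 4 and 5. Fos, an activity marker, was between 4.28 and 4.63 and between 3.83 and 4.73.

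Housekeeping lists held no gene at nominal p with limma. Of 34 cytosolic ribosomal protein genes 32 were below 0, with a median log2 fold change of -0.17, and -0.02 without Vehicle 4 and 5. Their mean log2 CPM was highest in Vehicle 5 (7.78), followed by Vehicle 4 and SAFit2 2 (both 7.50). Mitochondrially encoded genes had a median of -0.11, which turned to 0.03 after quantile normalization, 0.02 after correction for GC content and length and 0.07 without Vehicle 4 and 5. Nuclear genes of oxidative phosphorylation (-0.03) and cholesterol synthesis (0.03) centred near 0. The oxidative phosphorylation median turned to 0.13 without Vehicle 4 and 5 and changed sign under 8 of 28 alternatives. Pain-associated receptors and enzymes had a median of -0.05, with 1 of 40 higher (2.5%, against 1.19% of all genes) and 0 lower at nominal p. Besides meninges, described above, other tissue could come with a dissection. There, 0 of 16 genes of sensory neurons and Schwann cells, 0 of 6 of red blood cells, 0 of 6 of blood leukocytes and 0 of 19 lumbar Hox genes were lower or higher with limma at nominal p. Of 9 skeletal muscle genes 1 was lower (11.1%, against 1.92% of all genes), and of 19 motor neuron genes 1 was higher (5.26%, against 1.19%). Medians were 0.11 for sensory neurons and Schwann cells, 0.05 for red blood cells, 0.23 for leukocytes, -0.06 for Hox genes, 0.00 for muscle and 0.24 for motor neurons. Several of these turned with 1 mouse left out, motor neurons to -0.07 without SAFit2 1, leukocytes to -0.08 without Vehicle 4, sensory neurons and Schwann cells to -0.03 without SAFit2 2 and -0.01 without Vehicle 4, and red blood cells to -0.07 without SAFit2 2 and -0.01 without Vehicle 1. The muscle median changed sign under 11 of 28 alternatives.

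Whether the early effect differed from that of gel given on days 20 and 27 was tested in all 22 mice. Timing is marked as a batch in the labels, and the test therefore compared treatment effects that were each taken within 1 batch. With limma 0 of 16176 genes differed at an adjusted p under 0.05 (0%), the lowest being 0.117, and limma voom also called 0. At a nominal p under 0.05 there were 4117 (25.5%), where chance alone counts 809 on average, and 2055 after GC and length correction. Genes in the same mice are not independent, so that 4117 is not a count of genes shown to differ. For Dnah12 the log2 fold change was -3.05 in early and -0.40 in late mice (adjusted p of the difference 0.117), and for Ccdc153 -4.22 and -1.64 (0.239). For Naaa it was -0.30 and -0.17 (0.647), and for Thbd -0.65 and 0.36 (0.117). The motile cilia list had a median of -0.61 in early and -0.42 in late mice, and with limma as fitted here the adjusted p of the difference was not under 0.05 for any gene named. This call depended on the model: 2 genes passed without a variance trend, and 1829 with the replicate block within each timing, although replicate numbers did not pair the mice.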

How the data were processed

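RNA of spinal cord from 22 mice in 4 groups was sequenced, and the 11 early mice gave the comparison. Per the submitters' processing notes and the methods, reads were trimmed with Trimmomatic, aligned to mm10 with HISAT2, counted on genes and scaled with edgeR. The methods also describe removing genes with low counts. The table the authors deposited holds log2 CPM per gene and mouse. Its lowest value fits an added prior count of 2, and from it whole reads were recovered for 100% of values (tolerance 0.02). Depth was the sum of these reads, and a gene at few reads has an imprecise fold change. Every value column was matched to a mouse (0 unmatched).

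Genes that reached -1 log2 CPM in 5 of the 11 mice or more were tested with limma (version 3.58.1, R 4.3.3), with a variance trend and Benjamini-Hochberg adjustment over all 16176 genes. Single values were compared by two-sided exact permutation tests over 462 assignments of mice, with 0.00216 the smallest p possible. Fold changes are SAFit2 minus Vehicle. The fit was checked on simulated reads with the same spread for every gene and no outlying mouse. Changes were not set in genes of the lowest levels, so that the check does not cover genes near the floor. Tables and plots were made with Python 3.11.15, numpy 2.4.6, pandas 2.3.3 and matplotlib 3.10.9. Alternatives changed the filter, pseudocount, scaling, variance model, library weights, GC and length correction, replicate block and mice used. Gene positions and promoters are from RefSeq.

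Genes named were the 10 higher and 10 lower with the lowest p among genes without overlap between groups, then Fkbp5, Naaa, Penk and Enkur, the 2 written at the top of each of 37 lists, and up to 4 members of each list with the lowest p. Dnah5, Rsph1, Rsph4a, Cfap52, Tekt1, Tekt4, Fam216b, Tppp3, Aqp4, Pkd2l1, Ptgds, Hapln4, Scn3b and Cfap45 were chosen after their values were seen. The members and lists were chosen with earlier results of these data known. Some genes that this rule selects are not reported here.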

Additional observations from a re-analysis of the deposited data

Results flagged for a closer look

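In 260 sets of values of 1 group, 20 values lay far from the rest of their group by the gap between neighbouring values, where chance alone gives about 13 (1 in 20). Of the library measures, these were Vehicle 4 for Bc1 (11.9% of reads), Vehicle 5 for mitochondrial genes (15.6% of reads) and SAFit2 1 for genes at 0 reads (471).

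Of list means, SAFit2 2 was high for interferon-stimulated genes (2.55 log2 CPM) and antigen presentation (3.22), SAFit2 5 was low for sensory neurons and Schwann cells (3.88), and Vehicle 5 was high for mitochondrially encoded genes (13.02).

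Of cilia and ependymal genes, Vehicle 5 was low for Dnah1 (1.88 log2 CPM), Vehicle 1 for Cfap52 (-2.25) and SAFit2 1 for Tekt4 (-3.15), while SAFit2 4 was high for Tmem212 (-2.20). Of the other genes, SAFit2 5 was low for Pkd2l1 (1.99), Vehicle 5 high for Ptprc (2.88) and Vehicle 1 high for Sgk1 (5.79). Vehicle 4 was low for Oprm1 (-3.15), Gls2 (4.55) and Ube2e2 (4.63), and Vehicle 5 for Scn4b (7.45), Hapln4 (6.38) and Gys1 (3.52).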

How the results depend on the processing

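The count of adjusted calls, 0 with limma and all mice, was 10 with library weights and 1 without Vehicle 4 and 5 (chosen after seeing the data), and between 0 and 6 with 1 mouse left out, the 6 without Vehicle 1. Genes higher at nominal p (193) numbered 627 with library weights, 361 with GC and length correction, 380 with that correction and the replicate block, 110 without Vehicle 4 and 5, and 12 at a nominal p under 0.01, and between 66 and 437 with 1 mouse left out. Genes lower (310) numbered 754 with library weights, 196 with a filter at log2 CPM 1 and 84 at a nominal p under 0.01, and between 231 and 420 with 1 mouse left out. Of nominal genes, 48.7% were higher with GC and length correction and 51.5% with the block added, against 38.4%. Motile cilia genes lower (37 of the 310) numbered 13 of the 196 with the filter at log2 CPM 1 and 19 of the 84 at a nominal p under 0.01. They numbered between 29 and 45 with 1 mouse left out. Their median (-0.61) was between -0.73 and -0.47 with 1 mouse left out and between -0.73 and -0.31 over all 28 alternatives, the highest with a pseudocount of 2. Early minus late calls (0) numbered 2 without a variance trend, and 0 with any 1 early mouse left out. Of the 37 list medians, 15 kept their sign in all alternatives. The cause of these shifts was not tested.

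Replicate numbers did not pair the mice: of 5 early pairs of deviations, correlations were between -0.268 and 0.349, with 1 over 0.1, and 1 number matched best with itself. Of 5 late pairs they were between -0.138 and 0.195, with 1 over 0.1 and 0 matching best. With the replicate block, early adjusted calls were 0, with 197 genes higher and 243 lower at nominal p. With the replicate block within each timing, early minus late calls were 1829.

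Depth limits genes near the floor, such as Dnah12, whose fold changes rest on few reads. Samples hold several cell types, groups have 5 and 6 mice, and the smallest exact permutation p is 0.00216.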
